A study of Mus musculus with 8 samples.

Results

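The Hox genes are the 39 genes of the mouse table whose symbol is Hoxa, Hoxb, Hoxc or Hoxd followed by a number, out of 57180 annotated genes. They lie in 4 clusters, with 11 genes in HoxA on chromosome 6, 10 in HoxB on chromosome 11, 9 in HoxC on chromosome 15 and 9 in HoxD on chromosome 2. Membership was set by name alone and not by level, though the family was taken up with earlier results of these data known. RNA-seq was done on muscle stem cells, the resident stem cells of skeletal muscle, which were sorted from mice by FACS and used fresh. There were 4 control libraries (labelled WT, replicates 2, 5, 7 and 8) and 4 libraries labelled RhoA het (replicates 5, 6, 7 and 8). The genotype label of the second group reads RhoA knockdown, and the design text names its donors as SC-RhoAfl/+ mice, that is, mice carrying a floxed allele of Rhoa, the gene of a small GTPase that controls actin contractility. The labels used here do not spell out SC or name a Cre driver, and they give no age, sex or muscle of origin. Total RNA was extracted with Trizol and amplified by template switching with a low-input kit, by the same protocol in both groups. Nothing in the labels says whether a replicate is 1 mouse or a pool, so the p-values measure the spread between these samples.

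Hox genes encode homeodomain transcription factors that give cells along the head-to-tail axis and along the limb their positional identity. Within a cluster the genes are laid out in the order of their domains in the embryo: low paralogue numbers sit at the 3′ end and act towards the head, and high numbers sit at the 5′ end and act towards the tail and the far end of the limb. Genes with the same number in different clusters are paralogues, descended from a shared ancestor, and adult stromal and muscle cells are known to keep part of the code of their site of origin.

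The libraries held 19138763 to 25606342 fragments assigned to genes. Of the 172617997 fragments in all, 10464 fell on HoxC, 5673 on HoxA, 720 on HoxB and 513 on HoxD. Muscle stem cell markers were high in every library (10 of 10 markers at a mean of 1 TPM or more, summed level 10001 to 16423 TPM, with Pax7 at 60.8 ± 17.8 TPM, SD, n = 8). Fibro-adipogenic markers summed to 4208 to 9183 TPM in the controls and 6792 to 8916 TPM in RhoA het, none of the 10 at 0. RhoA het replicate 6 stood apart in its endothelial markers, which summed to 449 TPM there and to 42.0 to 120 TPM in the other 7 libraries, and in its erythroid markers (1279 TPM against 8.61 to 620 TPM). RhoA het replicate 8 had the highest summed mural markers (2319 TPM against 584 to 1362 TPM), tendon markers (363 against 40.1 to 305 TPM) and Schwann cell markers (318 against 141 to 256 TPM). These are bulk libraries, so a Hox transcript cannot be assigned to a cell type, and fewer cells of a type and less RNA per cell cannot be told apart.

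Muscle stem cell libraries carried a HoxC-dominated code that was centred on paralogue group 10 and stopped short of groups 12 and 13. TPM (a level corrected for gene length and library size) is used for levels, and a gene is called expressed at a mean of 1 TPM or more over the 8 libraries. By that rule 17 of the 39 Hox genes were expressed, against 27.3% of all annotated genes. The expressed genes were Hoxa5, Hoxa6, Hoxa7, Hoxa9, Hoxa10, Hoxa11, Hoxb6, Hoxb7, Hoxc4, Hoxc5, Hoxc6, Hoxc8, Hoxc9, Hoxc10, Hoxc11, Hoxd8 and Hoxd9. Hoxa11 and Hoxb6 passed only through RhoA het: they averaged 0.878 and 0.776 TPM in the controls and 1.55 and 1.64 TPM in RhoA het. The gene just inside that threshold was Hoxd9 at 1.201 TPM and the gene just outside it was Hoxb2 at 0.785 TPM. Moving the threshold to 0.5 TPM gave 22 genes and moving it to 2 TPM gave 13. The summed Hox level was 134 ± 17.3 TPM (SD, n = 8).

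**Figure D1:**
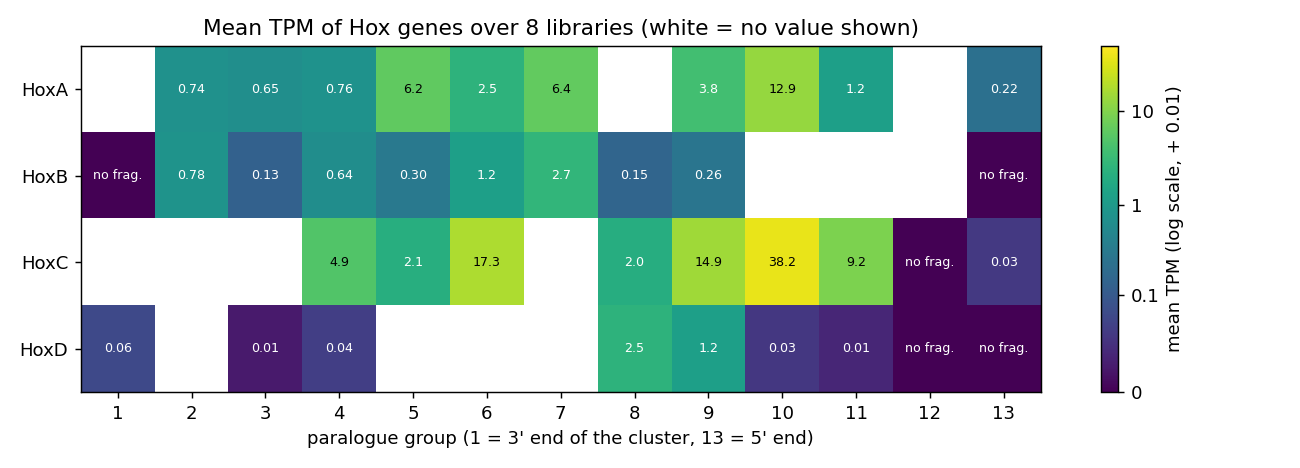
Mean TPM of Hox genes over the 8 libraries, by cluster (rows) and paralogue group (columns), with colour on a log scale and white where no value is shown. HoxC from Hoxc4 to Hoxc11 and HoxA from Hoxa5 to Hoxa11 are filled at 1.2 to 38.2 TPM, while group 12 and the outer HoxD genes are near or at 0.

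The 4 clusters differed widely in their share of the Hox signal. HoxC held 66.1% ± 3.90 of the summed Hox TPM (SD, n = 8), HoxA 26.5% ± 3.31, HoxB 4.51% ± 1.43 and HoxD 2.86% ± 0.79. HoxC ranged from 58.5% to 71.9% over the libraries and HoxA from 22.3% to 33.2%, so the lowest HoxC share lay above the highest HoxA share. HoxB ranged from 2.98% to 7.02% and HoxD from 1.85% to 4.29%, and these ranges overlapped. The shares of control and RhoA het lay close together: 66.2% ± 5.63 and 66.0% ± 1.92 for HoxC, and 26.7% ± 4.85 and 26.4% ± 1.40 for HoxA (SD, n = 4 each). Expressed genes made up 7 of 9 in HoxC and 6 of 11 in HoxA, but 2 of 10 in HoxB and 2 of 9 in HoxD. Summed without the length correction, as CPM, HoxC held 60.2% and HoxA 32.8%.

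**Figure D2:**
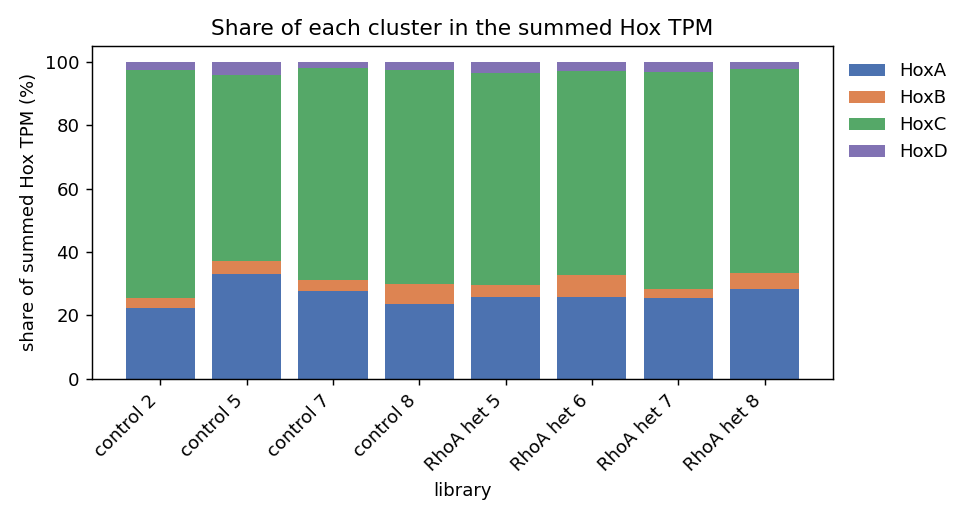
Share of each cluster in the summed Hox TPM (percent), 1 stacked bar for each library, controls at left and RhoA het at right. HoxC is the largest segment in all 8 bars (58.5% to 71.9%), and control replicate 5 has the largest HoxA segment (33.2%).

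By paralogue group, the share was largest in group 10 and small at both ends of the clusters. Groups 2 and 3, which pattern the hindbrain and neck, held 1.12% and 0.575% of the Hox TPM on average. Groups 4 to 8, genes of the neck and trunk and of the forelimb field, held 4.66%, 6.32%, 15.5%, 6.82% and 3.46%. Group 9 held 15.0%, group 10 held 38.3% and group 11 held 7.83%. Groups 9 to 11 act in the lumbar and sacral axis and in the upper and middle limb segments. Group 12 had no fragment in any library and group 13, which patterns hand and foot, held 0.191%. Within group 10 the signal came from Hoxc10 and Hoxa10, and Hoxd10 had 3 fragments over all libraries. The group 10 share was 28.3% in RhoA het replicate 8 and 34.8% to 43.9% in the other 7 libraries.

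HoxC held the highest gene of all. Hoxc10 (GRCm39 chr15:102875231-102880328, plus strand), a lumbar and hindlimb gene, stood at 36.2, 33.6, 40.1 and 32.2 TPM in control replicates 2, 5, 7 and 8 and at 41.4, 53.4, 40.2 and 28.7 TPM in RhoA het replicates 5, 6, 7 and 8. It was the highest Hox gene in 8 of 8 libraries, and its highest and its lowest value both came from RhoA het. Hoxc6, a gene of the upper trunk and forelimb level, was at 13.4, 14.01, 17.2 and 18.2 TPM in the controls and 16.3, 18.2, 15.2 and 25.7 TPM in RhoA het, in the same replicate order. Hoxc9, a lower trunk gene, was at 13.03, 10.8, 15.9 and 15.2 TPM in the controls and 14.2, 19.01, 16.2 and 14.5 TPM in RhoA het. The levels of both genes overlapped between the groups. Hoxc11 averaged 9.23 ± 1.22 TPM, Hoxc4 4.89 ± 1.40, Hoxc5 2.08 ± 0.512 and Hoxc8 2.00 ± 0.718 (SD, n = 8).

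The 5′ end of HoxC broke off sharply. Hoxc11 (GRCm39 chr15:102862862-102866143, plus strand) had 1006 fragments over the 8 libraries. Its 5′ neighbour Hoxc12 (chr15:102845192-102847044) had none, which allows up to 3 fragments or 0.0174 CPM (counts scaled to library size) over the pooled libraries (counting error only). Hoxc13, the last gene of the cluster, had 4 fragments. Hotair, the long noncoding RNA transcribed from between Hoxc11 and Hoxc12, averaged 6.00 ± 1.92 TPM (657 fragments, range 4.30 to 9.27 TPM).

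HoxA was led by Hoxa10, the paralogue of Hoxc10. It stood at 9.68, 20.02, 11.3 and 11.1 TPM in control replicates 2, 5, 7 and 8 and at 15.1, 12.2, 11.4 and 12.3 TPM in RhoA het replicates 5, 6, 7 and 8. Control replicate 5 was the highest of all, and the group ranges overlapped. Hoxa7, a trunk gene, was at 5.79, 6.12, 7.30 and 6.29 TPM in the controls and 5.62, 8.74, 5.71 and 6.00 TPM in RhoA het. Hoxa5, which acts at the neck and upper trunk, was at 4.36, 4.07, 7.19 and 5.05 TPM in the controls and 5.48, 8.49, 6.12 and 8.73 TPM in RhoA het. The highest RhoA het value of Hoxa7 (replicate 6) and of Hoxa5 (replicate 8) lay above all 4 controls, but the ranges overlapped. Hoxa9 averaged 3.83 ± 1.23 TPM, Hoxa6 2.46 ± 0.805 and Hoxa11, a gene of the lower arm and leg, 1.21 ± 0.726. Hoxa2 to Hoxa4 averaged 0.653 to 0.758 TPM, and Hoxa13 0.221 TPM with 30 fragments. Antisense genes share 35.0% of the exonic bases of Hoxa11, 27.1% of those of Hoxa3 (in part with genes of its own strand) and 20.4% of those of Hoxa7, which makes their levels less certain than that of Hoxa10, which shares none.

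HoxB was low throughout. Hoxb7, a trunk gene, led it at 2.03, 3.01, 1.70 and 3.81 TPM in the controls and 2.54, 5.11, 1.84 and 1.77 TPM in RhoA het. Hoxb6 followed with 0.347, 0.508, 1.08 and 1.17 TPM in the controls and 0.665, 2.60, 0.684 and 2.61 TPM in RhoA het, where replicates 6 and 8 exceeded every control and replicates 5 and 7 did not. Hoxb2 was at 0.313, 0.572, 1.18 and 0.782 TPM in the controls and 0.936, 0.964, 0.257 and 1.27 TPM in RhoA het. Hoxb4 averaged 0.638 TPM, Hoxb5 0.298, Hoxb9 0.262, Hoxb8 0.153 and Hoxb3 0.1295. Hoxb1, a hindbrain gene, and Hoxb13, the outlying 5′ gene of the cluster, had no fragment. Of the exonic bases of Hoxb3, 53.1% are shared with the antisense gene Hoxb3os, and of those of Hoxb2 27.3% are. Counting ignored strand, and fragments that touch 2 genes were not counted, so the levels of both genes are uncertain.

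HoxD was expressed in a window of 2 adjacent genes. Hoxd8, which acts in the trunk, was at 1.54, 3.33, 1.69 and 1.73 TPM in the controls and 3.33, 2.77, 3.48 and 1.80 TPM in RhoA het. Hoxd9, a lumbar and upper limb gene, was at 1.28, 1.56, 0.819 and 1.21 TPM in the controls and 1.07, 1.64, 0.838 and 1.199 TPM in RhoA het. Both genes overlapped between the groups. On the 5′ side the limb genes Hoxd10 and Hoxd11 had 3 fragments each, all in RhoA het, and Hoxd12 and Hoxd13 had none. On the 3′ side Hoxd4 had 6 fragments, Hoxd3 had 2 and Hoxd1 had 5. Hoxd3 and Hoxd4 share 62.8% and 52.3% of their exonic bases with other genes, mainly each other and an antisense gene, so fragments there could be lost.

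The promoters on either side of that boundary are given to show the silent and the expressed neighbours beside each other. The sequence is RefSeq, GRCm38.p6, plus strand, upstream of the annotated start: 250 bases for Hoxd10 (chr2:74691641-74691890) and Hoxd8 (chr2:74704365-74704614), and 200 bases for Hoxd9 (chr2:74697513-74697712), where the window stops before the 5′ UTR. Capitals mark the CCAAT box, a common promoter motif, on either strand.
Hoxd10: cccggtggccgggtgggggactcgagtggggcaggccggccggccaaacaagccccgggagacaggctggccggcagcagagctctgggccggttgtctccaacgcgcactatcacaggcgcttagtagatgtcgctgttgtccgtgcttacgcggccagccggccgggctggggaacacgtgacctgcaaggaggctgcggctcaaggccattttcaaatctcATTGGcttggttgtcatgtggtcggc
Hoxd9: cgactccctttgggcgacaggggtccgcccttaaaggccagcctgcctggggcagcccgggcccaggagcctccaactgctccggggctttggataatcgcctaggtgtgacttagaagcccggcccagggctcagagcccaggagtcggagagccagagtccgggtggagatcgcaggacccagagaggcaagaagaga
Hoxd8: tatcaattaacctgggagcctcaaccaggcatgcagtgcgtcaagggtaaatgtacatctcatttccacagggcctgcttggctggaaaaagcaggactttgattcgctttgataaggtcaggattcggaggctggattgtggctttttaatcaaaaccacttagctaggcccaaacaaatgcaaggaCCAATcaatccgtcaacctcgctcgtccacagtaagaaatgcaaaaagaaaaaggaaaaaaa
The windows of Hoxd9 and Hoxd10 had a GC content of 65.2% and 65.6%, and that of Hoxd8 had 44.4%, so the expressed pair were unlike each other in base composition (250 bases each). CCAAT occurred in the windows of Hoxd8 and Hoxd10 and not in that of Hoxd9. The promoter table matched 22 of the 39 Hox genes with 24 start sites. CCAAT was found on either strand in 14 of these 24 windows (58.3%) and in 33.8% of all 32851 windows of 250 bases. It was in 4 of the 10 windows of expressed Hox genes and in 10 of the 14 windows of the others. TATAAA was found in 16.7% of the Hox windows and 12.4% of all windows, GGGCGG in 41.7% and 32.7%, TGATTNAT in 8.33% and 2.82%, and CANNTG in 70.8% and 66.2%, all on either strand. The median ratio of observed to expected CpG was 0.721 in the Hox windows and 0.373 in all windows. A match is a match of letters and was not measured as a bound site.

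The Hox clusters also hold genes for microRNAs, short RNAs that repress transcripts pairing with their seed. The miR-10 and miR-196 families are shown after it was seen that the transcripts with an exact site fell into separate level classes. The mature sequences are from RefSeq (GRCm38.p6), with the seed, bases 2 to 8, in capitals. miR-10a and miR-10b share the seed ACCCUGU, and miR-196a and miR-196b share AGGUAGU.
miR-10a-5p: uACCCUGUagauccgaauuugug
miR-10b-5p: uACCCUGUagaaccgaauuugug
miR-196a-5p: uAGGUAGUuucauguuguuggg
miR-196b-5p: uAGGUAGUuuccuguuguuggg
An 8-letter match to miR-196, ACTACCTA, was present in the annotated 3′ UTR (GENCODE M21, GRCm38) of 5 of 39 Hox genes (12.8%), against 1.27% of 21022 genes with a 3′ UTR. The 5 genes were Hoxa5, Hoxa7 with 4 sites, Hoxb6, Hoxb7 and Hoxc8. All 5 were expressed over the 8 libraries, at 1.21 to 6.45 TPM, against 17 of all 39 Hox genes. Hoxb6 reached 1 TPM only through RhoA het (mean 1.64 TPM, against 0.776 TPM in the controls). The miR-10 match ACAGGGTA was present in 3 Hox genes (7.69%, against 2.08% of all genes): Hoxa3, Hoxb3 and Hoxd1, none of them expressed at 1 TPM. For miR-615-3p, whose gene lies in HoxC, the match GGCTCGGA was in 0 of 39 Hox genes (0.533% of all genes). Each site of the miR-196 set is given with its flank, 5′ to 3′ in the sense strand, with the match in capitals and, for Hoxa7, the site with the most paired bases.
Hoxa5: atatttttattcaaACTACCTA
Hoxa7: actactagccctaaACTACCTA
Hoxb6: tggaaggagcacatACTACCTA
Hoxb7: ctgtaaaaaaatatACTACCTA
Hoxc8: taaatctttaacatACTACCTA
Paired with miR-196a-5p over its 22 bases without gaps, these sites held 11, 14, 12, 14 and 12 Watson-Crick matches in that order. Hoxb8, known as a target of miR-196, has a wobble in the seed pairing and no exact copy of this string. It averaged 0.153 TPM (22 fragments) and was not expressed at 1 TPM, so the separation holds only for exact matches. The mature microRNAs were not measured here. Their hairpin genes had 0 fragments, apart from 1 for Mir196a-2, and this library type does not capture RNAs so short.

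**Figure D3:**
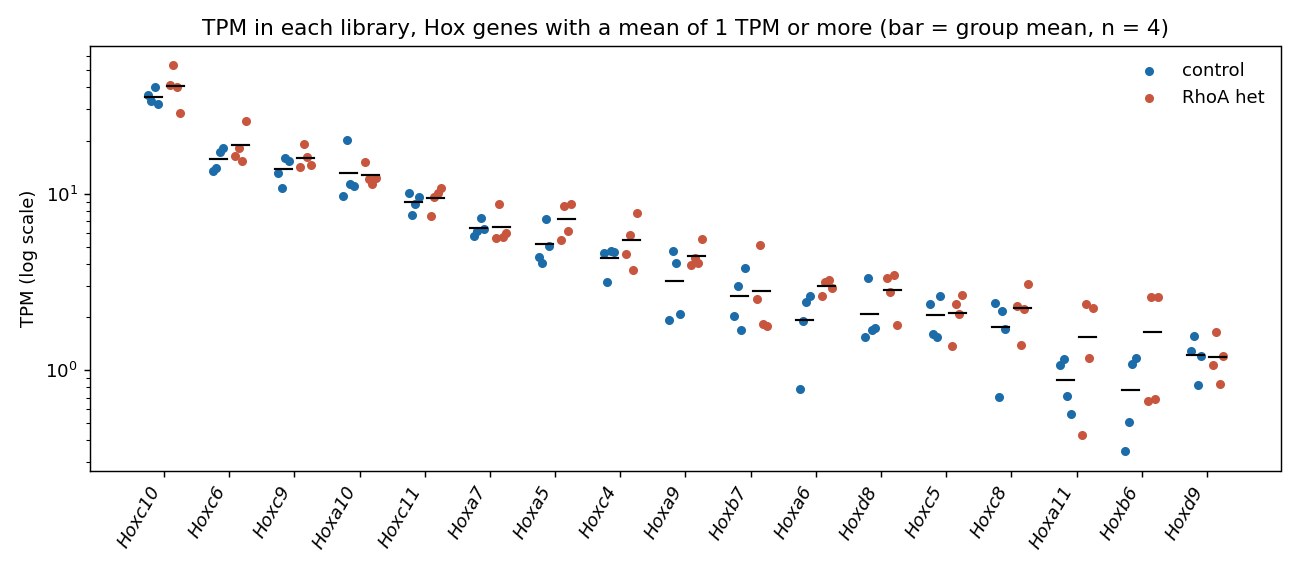
TPM (log axis) of the 17 expressed Hox genes in each library, control in blue and RhoA het in red, ordered by mean level, with a bar at each group mean (n = 4). Hoxc10 is on top in every library, and the points of the groups overlap for each gene.

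The order of the levels had few clear steps. The 5 highest genes, Hoxc10, Hoxc6, Hoxc9, Hoxa10 and Hoxc11, held 68.9% of the summed Hox TPM. Comparing neighbours in the order within each library, Hoxc10 exceeded Hoxc6 by 20.9 ± 9.37 TPM (SD, n = 8) and was higher in 8 of 8. Hoxc6 over Hoxc9, Hoxc9 over Hoxa10 and Hoxa10 over Hoxc11 were differences within 1 SD. Hoxc11 exceeded Hoxa7 by 2.78 ± 1.59 TPM, and Hoxa5 exceeded Hoxc4 by 1.30 ± 1.09 TPM. From Hoxc4 down to Hoxb4 no neighbours differed beyond that spread, and Hoxb4 exceeded Hoxb5 by 0.339 ± 0.244 TPM. For the high genes the spread between libraries was wider than counting alone would give: 23.0% against 4.52% for Hoxc10 in CPM. For Hoxd9 the values were 28.3% and 24.3%, so most of its spread was within counting error.

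Several libraries had a Hox profile of their own. In RhoA het replicate 8 Hoxc10 was at its lowest (28.7 TPM) while Hoxc6 (25.7 TPM), Hoxc4 (7.78 TPM) and Hoxc8 (3.07 TPM) were at their highest. The ratio of Hoxc10 to Hoxc6 was 1.12 there and 1.77 to 2.93 in the other 7 libraries. This library was the highest for 6 of the 8 HoxC genes with a fragment. Of these, Hoxc13 had 2 fragments there and Hoxc5 was at 2.653 TPM, against 2.648 TPM in control replicate 8. RhoA het replicate 6 was the highest for 15 of the 34 Hox genes with a fragment, among them 6 of 8 in HoxB. Of the 17 expressed genes it was the highest for 6, and replicate 8 for 8. The others of its 15 genes averaged under 1 TPM, many with few fragments. The same shares over all genes were not measured. RhoA het replicate 6 had the highest summed Hox level, 170 TPM against 114 to 145 TPM elsewhere. It also held the endothelial and erythroid marker peaks given above, and replicate 8 the mural, tendon and Schwann peaks, and the part of these cell types in the Hox values was not tested.

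**Figure D4:**
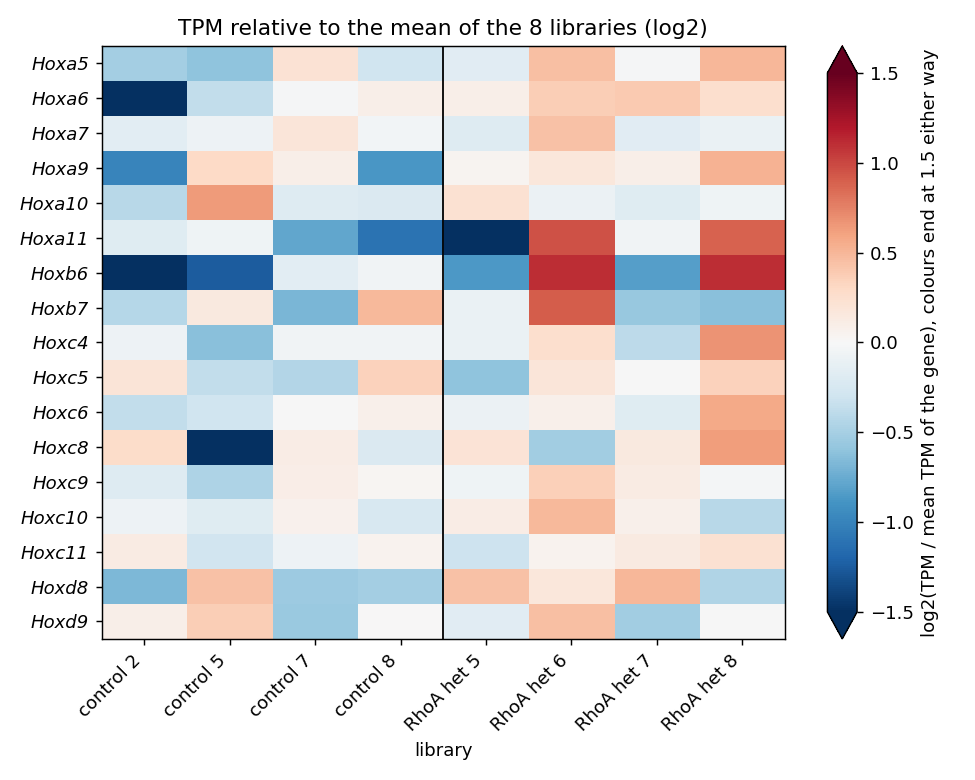
Level of each expressed Hox gene in each library relative to the gene's mean over the 8 libraries, as log2 of the TPM ratio (red above, blue below, colours end at 1.5 either way), genes ordered by cluster and paralogue group. RhoA het replicate 8 is red from Hoxc4 to Hoxc8 and blue at Hoxc10 (25.7 TPM for Hoxc6 and 28.7 TPM for Hoxc10), and replicate 6 is red for most genes of HoxA and HoxB.

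Some genes of limb identity were also at an extreme in RhoA het replicate 8, and others of the same list were not. Tbx5 and Tbx4, T-box factors that mark the forelimb and the hindlimb, were singled out after their values were seen, as were Shox2, Alx4 and Pitx1. Tbx5 was at 1.24 TPM (34 fragments) in RhoA het replicate 8 and at 0 to 0.313 TPM (up to 10 fragments) in the other libraries. Tbx4 was at 1.31 TPM in that library and 1.08 TPM in control replicate 2, and at 2.16 to 4.81 TPM in the other 6. Shox2, a gene of the upper limb segment, was highest in the same library at 5.36 TPM, against 0.937 to 3.62 TPM elsewhere. Alx4, another limb gene, was inside the range of the other libraries there (0.314 TPM, against 0.142 to 0.638 TPM). Pitx1, which lies upstream of Tbx4 in the hindlimb, had 7 fragments over all libraries. Which muscles went into each library is not in the labels used here, and their part in these values was not tested.

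The comparison of RhoA het with control asks how lowered RhoA changes expression, here of the positional code. No Hox gene passed the test, and the code of the RhoA het cells had the same expressed clusters and the same leading gene. By group mean, Hoxa11 and Hoxb6 reached 1 TPM in RhoA het and not in the controls. Rhoa itself checks the labels: it stood at 132, 148, 121 and 136 TPM in the controls and 117, 111, 112 and 125 TPM in RhoA het, where 3 of 4 libraries lay below all controls. The log2 fold change was −0.29 ± 0.13 (SE), with an unadjusted p of 0.0495 and an adjusted p of 1.00 in edgeR's quasi-likelihood fit and a two-sided exact permutation p of 0.0571. Of all 15660 genes tested, 0 were called at an adjusted p under 0.05 (0%) and 372 had an unadjusted p under 0.05 (2.38%). DESeq2 and limma-voom also called 0, with 344 and 324 genes at an unadjusted p under 0.05.

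Of the 39 Hox genes, 20 passed the filter on low counts. Of these, 0 were called and 0 had an unadjusted p under 0.05. With the replicate numbers as a block over 3 pairs, 2 of 15714 genes were called (0.0127%) and 827 had an unadjusted p under 0.05 (5.26%), and both counts were 0 for the Hox genes. The fold changes of 14 were positive and of 6 negative, against 49.9% positive among all genes tested, and their median log2 fold change was 0.19 against −0.00071 for all genes. The count varied with the libraries left out. Without RhoA het replicate 6, 11 of 20 were positive (50.3% of all genes), and without replicate 8, 13 of 21 (47.2%). Without RhoA het replicate 5 it was 20 of 22 (49.5%), and without replicate 7 18 of 22 (49.7%). With a control left out, 66.7% to 86.4% of the Hox genes were positive. RhoA het replicates 6 and 8 held the most Hox maxima and were left out together after seeing the data. That gave 7 of 21 positive (45.9% of all genes), with a median of −0.21, and a lower count follows in part from this choice. On all 8 libraries, the count of positive fold changes rose to 17 of 20 with scaling by total counts (58.5% of all genes). On log2(TPM + 1) it rose to 18 of 20 (66.9% of all genes). In the 6 libraries with a shared number it was 12 of 20 with the numbers as a block (46.2% of all genes) and 13 of 20 without the block (45.8%). The TPM of the groups overlapped for all 20, while 1.51% of all genes tested did not overlap.

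The HoxA genes with the smallest p were Hoxa9 and Hoxa6. Hoxa9, a gene of the lumbar level and the upper limb, was at 1.93, 4.71, 4.05 and 2.08 TPM in the controls and 3.95, 4.32, 4.06 and 5.51 TPM in RhoA het. Its log2 fold change was 0.45 ± 0.26 (SE; edgeR unadjusted p = 0.119; exact permutation p = 0.171). Hoxa6 was at 0.781, 1.90, 2.43 and 2.63 TPM in the controls and 2.62, 3.18, 3.24 and 2.93 TPM in RhoA het, where 3 of 4 libraries lay above all controls. Its log2 fold change was 0.57 ± 0.36 (SE; edgeR unadjusted p = 0.146; exact permutation p = 0.0571). Neither passed the adjusted threshold (adjusted p = 1.00, edgeR). The smallest p that 4 against 4 libraries can give in the exact two-sided test is 0.0286.

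Hoxb6 had the largest fitted difference, a log2 fold change of 1.02 with a 95% confidence interval of −0.32 to 2.36 (edgeR unadjusted p = 0.121), and it was −0.32 without RhoA het replicates 6 and 8. Hoxa5 and Hoxd8 were at 0.41 each, with intervals of −0.23 to 1.04 and −0.28 to 1.10. The abundant genes lay near 0: Hoxc10 at 0.12 (−0.37 to 0.61), Hoxc6 at 0.18 (−0.30 to 0.66) and Hoxc9 at 0.13 (−0.35 to 0.61). Negative values were fitted for Hoxa10 at −0.08 (−0.515 to 0.35), Hoxa7 at −0.04 (−0.56 to 0.48) and Hoxd9 at −0.10 (−0.90 to 0.69). Hoxb7 and Hoxb2 were at 0.04 (−0.95 to 1.04) and 0.21 (−0.93 to 1.34), and with the replicate block they were at −0.47 and −0.21. A doubling, 1 on this scale, lay outside the intervals of Hoxc10, Hoxc6, Hoxc9, Hoxa10, Hoxa7 and Hoxd9 and inside those of Hoxb6, Hoxb7, Hoxb2, Hoxa5, Hoxa6, Hoxa9 and Hoxd8.

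**Figure D5:**
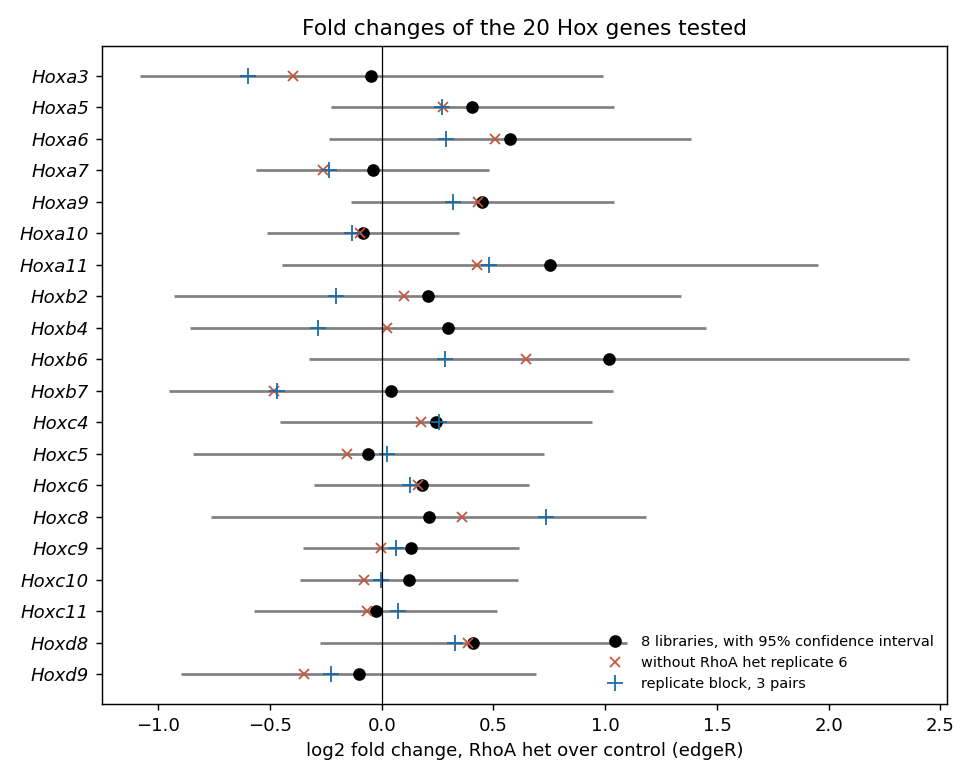
log2 fold change of the 20 Hox genes tested, RhoA het over control, with 95% confidence intervals from edgeR (black), without RhoA het replicate 6 (red crosses) and with a replicate block over 3 pairs (blue plus signs). All 20 intervals include 0, and Hoxb7 moves from 0.04 to −0.48 without replicate 6.

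Proteins and inputs that Hox genes work with were expressed in the same libraries, and none of their genes was called. For this and the following lists, the fold changes and unadjusted p are from edgeR on all 8 libraries, without the replicate block. Of 12 genes for TALE homeodomain factors and their partners, which join Hox proteins on DNA, 11 were tested, 8 with a positive fold change, and 0 had an unadjusted p under 0.05. Tgif1 led at 438 ± 35.7 TPM, followed by Pknox1 at 89.8 ± 11.9 and the Pbx-binding protein gene Pbxip1 at 59.4 ± 12.1 TPM (SD, n = 8). The smallest p were those of Pknox1 (log2 fold change −0.19) and Meis1 (0.33). Of 25 Polycomb and Trithorax regulators, which keep Hox genes silent or active, 25 were tested, 12 positive, and 0 had an unadjusted p under 0.05. The demethylase gene Kdm6b was highest at 290 ± 25.7 TPM, then the Polycomb ligase gene Rnf2 at 132 ± 14.2 and Wdr5 at 60.6 ± 11.1. Kmt2b had the smallest p (log2 fold change 0.34).

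Of 27 genes for limb, head and somite identity, 21 were tested, 13 positive, and 0 had an unadjusted p under 0.05. Msc, a head muscle and myogenic repressor gene, was highest at 382 ± 236 TPM, and Meox2, a somite gene, was at 24.3 ± 16.5. Barx2 and Nr2f1 had the smallest p (log2 fold changes 0.72 and −0.98). Pax3 and Lbx1, genes of migrating limb muscle precursors that were also named after their values were seen, were at 9.62 ± 2.59 and 7.27 ± 0.992 TPM. Of 22 genes that set Hox expression in the embryo (retinoic acid metabolism and receptors, Cdx, Gdf11 and CTCF), 17 were tested, 10 positive, and 0 had an unadjusted p under 0.05. The receptor genes Rarg and Rara led at 58.3 ± 8.19 and 47.0 ± 8.14 TPM, with the retinal reductase gene Dhrs3 at 43.9 ± 21.3. Cyp26b1, which breaks down retinoic acid, and Gdf11 had the smallest p (0.49 and 0.25 on the log2 scale). The caudal genes Cdx1 and Cdx2 had no fragment.

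Of 15 noncoding genes of the clusters, 5 were tested and 0 had an unadjusted p under 0.05. Hotair led, then Hotairm1 at 4.39 ± 1.33 TPM and Hoxd3os1 at 0.713 ± 0.203. Hottip, at the Hoxa13 end, had 1 fragment. Hoxa11os had the smallest p (log2 fold change 0.61) but shares 35.0% of the exonic bases of Hoxa11. Strand was ignored and fragments that touch both genes were not counted, so the levels of both are less certain. Of 12 dispersed genes around the clusters found in the table, 8 were tested, 6 positive, and 0 had an unadjusted p under 0.05. Nfe2l1, Calcoco1 and Cbx5, beside HoxB and HoxC, stood at 88.1 ± 10.4, 51.5 ± 6.76 and 34.5 ± 5.89 TPM, while no Hox gene but Hoxc10 averaged over 17.3 TPM. Evx1, the homeobox gene next to Hoxa13, had no fragment. Lnpk and Snx10 had the smallest p (log2 fold changes −0.16 and 0.12).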

How the data were processed

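The authors deposited a gene count table and a TPM table for the 8 libraries. Per the file headers the counts, numbers of fragments per gene, were made with featureCounts 1.6.4 on the GENCODE mouse annotation M34, with strand ignored and fragments that fall on 2 genes not counted. The submitters' processing notes name FastQC, cutadapt, STAR, featureCounts and DESeq2 and the build GRCm39. The deposited TPM values equal those recomputed from the counts and gene lengths to a relative difference of 1.5e-14. The featureCounts command in the header names 10 alignment files, and 8 columns are in the table used here.

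Gene symbols were matched through the annotation tables for 51884 of the 57180 genes. Groups came from the sample titles. The comparison was fitted on all genes with edgeR 4.0.16 (R 4.3.3) by the quasi-likelihood test, with TMM scaling, the default filter on low counts and Benjamini-Hochberg adjustment over the 15660 genes tested at 0.05. The biological coefficient of variation was 33.3%. DESeq2 1.42.0 and limma 3.58.1 were alternatives, with other scalings, filters, pseudocounts and each library left out. Fold changes on log2(TPM + 1) are on that scale and understate low genes. The fit was tested on simulated data. The groups share replicate numbers 5, 7 and 8. Deviations from the group means correlated at 0.544, 0.231 and 0.488 over genes for those pairs, and at −0.373 to 0.123 for the others. The numbers were therefore taken to pair the samples, though the labels do not say what a number stands for. The fit on all 8 libraries leaves them out. In the 6 numbered libraries the biological coefficient of variation was 17.4% with the block and 31.4% without it. Levels are given by gene, range or count, and some items are not reported here. Full values are given for the 3 highest genes of each cluster above 0.5 TPM and the 3 tested genes with the smallest p in each direction, and for each companion list the 3 highest genes and the 2 with the smallest p. Hox genes and companion lists were chosen with earlier results of these data known. The limit given for a count of 0 covers counting error only, while edgeR's intervals include the spread between libraries. At 19138763 to 25606342 fragments a library, 10 fragments is the level at which a gene was taken as detected in a library, which held for 16 to 26 Hox genes.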

Additional observations from a re-analysis of the deposited data

Results flagged for a closer look

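Each group of 4 libraries was searched for a library standing far from the other 3 (Dixon's test at its 95% critical value), over 44 sets of values. Chance alone flags about 1 in 20 groups, or 2.2 here, and 4 were found. Hoxa10 was at 20.02 TPM in control replicate 5, against 9.68 to 11.3 TPM in the other controls. Hoxd8 was at 3.33 TPM in the same library, against 1.54 to 1.73 TPM in the other controls. Control replicate 5 also had the highest summed myofibre markers of the 8 libraries (937 TPM, against 76.0 to 775 TPM). Its fibro-adipogenic markers were the highest too (9183 TPM, against 4208 to 8916 TPM), and the part of these cell types was not tested. Hoxa7 was at 8.74 TPM in RhoA het replicate 6, against 5.62 to 6.00 TPM in the other RhoA het libraries. The HoxA share of the summed Hox TPM was 28.5% in RhoA het replicate 8, against 25.4% to 25.9% in the other RhoA het libraries.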

How the results depend on the processing

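The count of Hox genes called was 0 under all alternatives, as was that of companion genes. Over all genes the count was 0 except with the replicate block over the 3 numbered pairs, where 2 of 15714 genes were called and 827 (5.26%) had an unadjusted p under 0.05. The block changed no other call, and neither of these genes is a Hox gene. Leaving out a library gave 1 Hox gene at an unadjusted p under 0.05: Hoxa11 without RhoA het replicate 5 (adjusted p = 1.00, edgeR). Summed as CPM in place of TPM, the HoxA share was 32.8% and the HoxC share 60.2%. With each library left out in turn, HoxA ranged from 25.6% to 27.1% and HoxC from 65.3% to 67.2%, and Rhoa from −0.37 to −0.21 on the log2 scale. Of 273 alternative fold changes of the 13 Hox genes with full values, 240 kept their sign and 33 reversed, in 9 genes, none called in either direction. The cause of the reversals was not tested.

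With each library left out in turn, log2 fold changes ranged from −0.17 to 0.092 for Hoxa10, −0.26 to 0.047 for Hoxa7, −0.48 to 0.29 for Hoxb7, 0.65 to 1.30 for Hoxb6, −0.037 to 0.53 for Hoxb2, −0.081 to 0.26 for Hoxc10, −0.00096 to 0.27 for Hoxc6, −0.026 to 0.21 for Hoxc9 and −0.35 to 0.031 for Hoxd9. On log2(TPM + 1), with or without the filter, Hoxa10 was at 0.017 and Hoxa7 at 0.012, and with a pseudocount of 0.1 at 0.021 and 0.012. Scaled by total counts, Hoxa7 was at 0.0018, and limma-voom put Hoxb7 at −0.032. With the replicate block Hoxb7 was at −0.47, Hoxb2 at −0.21 and Hoxc10 at −0.0022. In the same 6 libraries without the block Hoxb7 was at −0.53 and Hoxb2 at −0.12, and with the number fitted as a random effect they were at −0.18 and −0.093. Without RhoA het replicates 6 and 8 (an alternative chosen after seeing the data) Hoxb7 was at −0.40, Hoxb6 at −0.32, Hoxb2 at −0.38, Hoxa7 at −0.30 and Hoxc6 at −0.13. Leaving out members that share over 25 percent of their exonic bases, also chosen after seeing the data, put HoxC at 67.5% and HoxA at 25.7%. Depth limits the low genes: 5 Hox genes had no fragment and 6 had under 10 over all libraries, so differences between groups could not be measured for them.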
